A study of Mus musculus with 29 samples.

Results

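This report describes 42 interferon-stimulated genes and interferon factors in sorted splenic and hepatic macrophages, with and without RNase T2. The genes were chosen as a fixed list of 44 symbols, of which 42 were found among the 23930 rows of the deposited expression table; *Isg15* and *Ifit3* were not analysed here. They fell into 6 sensors of double-stranded or other unusual RNA, 6 oligoadenylate synthetases and their relatives, 2 IFIT proteins, 13 other antiviral effectors, 2 genes of the ISG15 system, 3 interferon-inducible GTPases, 2 PYHIN proteins, and 8 receptor chains and transcription factors. All 42 passed the filter on low values in each of the 13 comparisons below, so no member was dropped for being low.

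RNase T2 is a lysosomal ribonuclease encoded in mice by *Rnaset2a* and *Rnaset2b*, and the Rnaset2-/- mice carried deletions of both genes on a C57BL/6 background. Mice were kept free of specific pathogens and received no treatment, and ages were not given in the sources used here. The levels of *Rnaset2a* and *Rnaset2b* were not analysed here, so they did not serve as a check of the genotype. The spleen gave wild-type Ly6Chi (n = 3), wild-type Ly6Clow (n = 3), Rnaset2-/- Ly6Chi (n = 3) and Rnaset2-/- Ly6Clow (n = 4) macrophages. The liver gave the same 4 groups with 3 libraries each, and Kupffer cells (KCs, the resident macrophages of the liver sinusoids) from wild-type mice only (n = 4). Ly6Chi cells were gated as CD11b+ cells without Ly6G, SiglecF or NK1.1, Ly6Clow cells also carried the Fc receptor CD16.2, and KCs were gated by F4/80, intermediate CD11b, Tim4 and low PDCA-1. PDCA-1 is the product of the member gene *Bst2*, so the gate itself touched *Bst2* in KCs. Nothing in the labels said that the libraries of a group came from separate animals, so the p-values below measure only the spread between libraries, which may be technical.

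Interferons are secreted when cells sense foreign or misplaced nucleic acid. Type I interferons bind the receptor of IFNAR1 and IFNAR2 and activate a complex that includes STAT2 and IRF9 and binds the interferon-stimulated response element (ISRE); interferon-gamma binds IFNGR1 and IFNGR2 and acts at the gamma-activated site (GAS), and through IRF1. Macrophages, which digest dead cells and their nucleic acids, express many of the induced genes at rest, and these encode RNA sensors, enzymes that break down or modify RNA and nucleotides, and proteins that restrain the response.

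To describe the sequence near the members, the windows around their transcription starts were searched for the ISRE letters (GAAA, any 2 bases, GAAA, read on both strands) and for the GAS letters (TTC, any 3 bases, GAA, which read alike on both strands). The windows, from RefSeq on GRCm38.p6, ran from 250 bases before to 50 bases after each start, and 32 of the 42 members had one. These members had 40 windows, since a gene can have several starts. The ISRE letters stood in 17 of the 40 windows, against 3.44% of all 32851 windows, and in 16 of the 32 members, against 3.84% of the genes in the table that had a window. The GAS letters stood in 10 of the 40 windows, against 8.3% of all windows, and in 10 of the 32 members (31.2%), against 9.49% of the genes. Of the 25 ISRE matches in member windows, 1 overlapped a GAS match, and 3 members held both motifs. The stretches below are from members on which the later results turn, 5′ to 3′ along the gene's own strand, with the ISRE letters, on either strand, in capitals:
Ifit1, chr19:34640784-34640813, plus strand: gTTTCACTTTCcagtctcagTTTCAGTTTC
Rsad2, chr12:26456553-26456582, minus strand: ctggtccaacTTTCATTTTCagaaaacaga
Trim30a, chr7:104465210-104465239, minus strand: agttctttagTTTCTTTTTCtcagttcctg
Gbp2, chr3:142620594-142620623, plus strand: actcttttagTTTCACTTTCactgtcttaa
Gbp3, chr3:142559992-142560021, plus strand: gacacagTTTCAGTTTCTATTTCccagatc
Irgm1, chr11:48871428-48871457, minus strand: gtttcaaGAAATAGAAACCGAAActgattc
Ifi205, chr1:174031870-174031899, minus strand: ccaggccaggGAAATTGAAAgctatgaaca
All 7 stretches lay upstream of the annotated start. *Ifit1* held 2 separate matches, and in *Gbp3* and *Irgm1* 2 matches overlapped. A match describes letters and is not a measured binding site.

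Expression was measured with an amplicon panel that reads 1 fragment per gene, and the deposited values are RPM, reads scaled to 1000000 per library. RPM can therefore be compared for 1 gene between groups but not between genes. The libraries held 11175843 to 21167602 reads (median 13027220), and 3 reads corresponded to 0.142 to 0.268 RPM. Depth moved with genotype in splenic Ly6Chi cells, with 20404155 to 21167602 reads in Rnaset2-/- and 14280906 to 14415756 in wild-type libraries. The part of depth in that comparison was not tested. Related copies, such as *Oas1a* and *Oas1g*, *Gbp2* and *Gbp3*, or *Ifi204* and *Ifi205*, may share reads, and their separation was not tested. Differences are given as log2 fold changes of log2(RPM + 1) after scaling by size factors, ± SE. A gene was called when it differed by more than 1.5-fold with an adjusted p below 0.05 (limma, Benjamini-Hochberg over all genes tested). RPM values in the text are as deposited, so a fold change can differ slightly from their ratio. In bulk libraries fewer cells that express a gene and less RNA per cell cannot be told apart.

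Several libraries stood apart from their group. In liver, replicate 1 of the Rnaset2-/- Ly6Clow group was the highest of its 3 libraries in 29 members and more than 2 times the mean of the others in 11, and replicate 1 of the Rnaset2-/- Ly6Chi group was highest in 21 and over 2 times in 5. Replicate 2 of the wild-type hepatic Ly6Chi group was highest in 25 members and over 2 times the mean of the others in 6, with the largest ratio for *Rsad2* (4.67). In the Rnaset2-/- splenic Ly6Chi group replicate 1 was the highest library in 35 members and replicate 2 the lowest in 33. These ranks and ratios are on RPM as deposited and were not counted over all genes. They therefore do not set the members apart from a shift of the whole library. In the wild-type splenic Ly6Chi group the libraries were close together, with a median coefficient of variation of 6.0% over the members, against 12.0% to 29.2% in the other groups. All 6 hepatic Rnaset2-/- libraries carried Y-linked transcripts at a summed 150.1 to 291.2 RPM, against 0 to 52.0 in the hepatic wild-type libraries, so in liver the effects of genotype and of sex cannot be told apart. In spleen, replicate 2 of the Rnaset2-/- Ly6Clow group was the only library with Y-linked transcripts at such a level (301.2 RPM). Immediate early genes, which rise during tissue dissociation, summed to 26932 to 39360 RPM in the 6 wild-type Ly6Chi and Ly6Clow hepatic libraries, to 1432 to 8374 in the 6 Rnaset2-/- ones and to 2013 to 3372 in KCs. The part of sex, of dissociation and of the cell mixtures named below in any result was not tested.

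In wild-type mice, Ly6Clow macrophages held lower levels of most members than Ly6Chi macrophages in both organs. In spleen 27 members were called lower and 2 higher, against 19.8% lower and 13.8% higher among all genes tested, and in liver 24 were lower and 0 higher, against 4.84% lower and 5.24% higher. The median log2 difference over the 42 members was -0.80 in spleen and -0.82 in liver, and over all genes it was 0.01 and 0.02. Of the lower members, 19 were shared, which was 19 of the 27 in spleen and 19 of the 24 in liver. The sharing of calls over all genes was not counted. Markers of other cells moved with the subset. In spleen, neutrophil markers summed to 30531 to 32768 RPM in Ly6Chi and to 1066 to 2427 in Ly6Clow libraries, NK markers to 816 to 888 and 118 to 189, and T cell markers to 215 to 222 and 18.8 to 28.3. In liver, neutrophil markers summed to 240 to 2360 and 4.3 to 11.5 RPM, and KC markers to 7.9 to 13.4 and 118 to 165. Their part in the member values was not tested.

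*Ifi205*, a PYHIN protein of the DNA-binding IFI200 family, showed the widest gap between subsets. It stood at 154, 156 and 154 RPM in splenic Ly6Chi and at 16.3, 19.4 and 18.6 in splenic Ly6Clow libraries, and at 632, 572 and 540 in hepatic Ly6Chi against 93.6, 109 and 85.7 in hepatic Ly6Clow libraries. No Ly6Clow value reached a Ly6Chi value of the same organ (log2 -2.89 ± 0.10, adjusted p = 1.79e-08 in spleen; -2.70 ± 0.15, 1.75e-05 in liver). *Usp18*, the protease that removes ISG15 and restrains IFNAR signalling, was lower in Ly6Clow cells by -2.29 ± 0.16 in spleen (6.05 against 36.6 RPM, adjusted p = 1.49e-06) and by -1.34 ± 0.16 in liver (20.8 against 50.6 RPM, adjusted p = 0.000831). In spleen the other large falls were in *Rsad2* (-2.55 ± 0.23) and in the OAS relative *Oasl2* (-1.99 ± 0.10). In liver they were in *Gbp2* (-1.65 ± 0.20), *Ifit1* (-1.47 ± 0.20) and *Gbp3* (-1.46 ± 0.14), guanylate-binding and RNA-binding effectors. *Gbp2* was not called in spleen (18.5 against 22.7 RPM, -0.14 ± 0.12).

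Few members went the other way. *Ifnar2*, a receptor chain for type I interferon, was higher in splenic Ly6Clow cells, at 157, 173 and 154 RPM against 99.7, 96.3 and 107 in Ly6Chi cells (0.82 ± 0.09, adjusted p = 2.43e-05). *Zbp1*, the sensor of Z-form nucleic acid, was higher in splenic Ly6Clow cells (0.63 ± 0.08, adjusted p = 0.000149) and lower in hepatic ones (-0.72 ± 0.15, adjusted p = 0.0147). In spleen the *Zbp1* call was lost on RPM as deposited, which shifted the median of all genes by -0.14, and the difference between organs was not tested for this subset comparison.

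**Figure D1:**
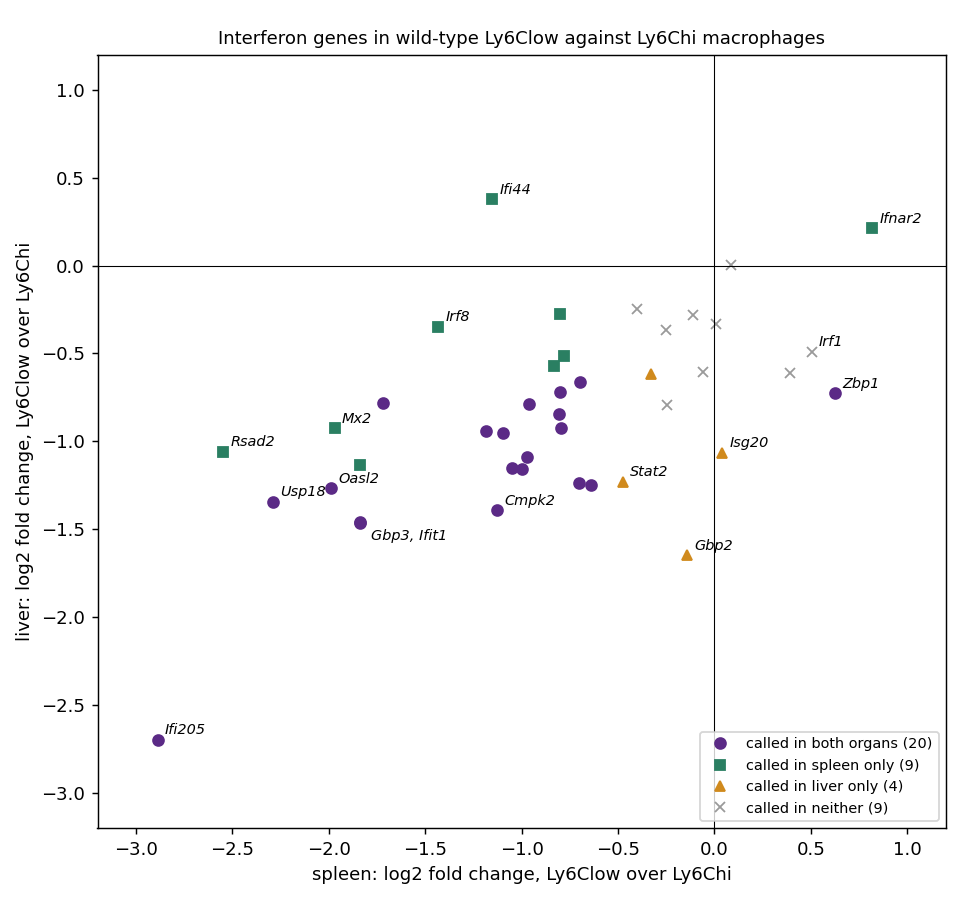
Log2 fold change of the 42 members between wild-type Ly6Clow and Ly6Chi macrophages, in spleen on the x axis and in liver on the y axis, 1 point per gene with shape and colour by the organs in which it was called. 20 genes were called in both organs, 9 in spleen only, 4 in liver only and 9 in neither; most points lie below 0 on both axes, with Ifi205 lowest.

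Between organs, wild-type hepatic macrophages held more of many members than splenic macrophages of the same subset. In Ly6Chi cells 20 members were called higher in liver and 1 lower, against 17.1% and 20.7% of all genes, and in Ly6Clow cells 18 were higher and 0 lower, against 18.8% and 15.3%. The median log2 difference was 0.57 in Ly6Chi and 0.54 in Ly6Clow cells, and over all genes -0.04 and -0.02. Of these calls 14 genes were called higher in both subsets, out of 20 and out of 18, and such sharing was not counted over all genes. On RPM as deposited the Ly6Chi counts became 13 higher and 3 lower, with the median of all genes shifted by -0.26. Neutrophil markers were called lower in liver for 10 of 12 genes in Ly6Chi and 11 of 11 in Ly6Clow cells, and NK markers for 9 of 9 in both.

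*Gbp2* stood at 275, 352 and 199 RPM in hepatic Ly6Chi libraries and at 22.3, 22.1 and 23.7 in splenic ones (3.78 ± 0.17, adjusted p = 6.23e-07). In Ly6Clow cells it stood at 97.9, 93.0 and 84.4 against 17.3, 20.0 and 18.1 (2.29 ± 0.13, adjusted p = 2.12e-06). Both subsets were separated by organ with no overlap. *Ifi205* was higher in liver by 2.18 ± 0.10 in Ly6Chi and 2.39 ± 0.15 in Ly6Clow cells, and the effector *Ifi44* by 1.13 ± 0.23 and 2.66 ± 0.21. *Ifit1*, which binds viral RNA, was higher by 1.46 ± 0.16 and 1.84 ± 0.16. *Ifi35* was the 1 member called lower in liver, in Ly6Chi cells (46.6 against 90.2 RPM, -0.79 ± 0.27, adjusted p = 0.0372).

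KCs had the highest mean RPM of the 9 groups for 19 of the 42 members, followed by wild-type hepatic Ly6Chi with 8, while wild-type and Rnaset2-/- splenic Ly6Clow cells had the lowest mean for 17 and 13. These ranks are on RPM as deposited, and the same ranks were not counted over all genes. Against wild-type hepatic Ly6Clow macrophages, 13 members were called higher in KCs and 6 lower, against 26% and 24% of all genes (median 0.29 over the members and 0.02 over all genes). On RPM as deposited the same comparison gave 26 higher and 3 lower, against 5477 and 1385 of the 12515 genes tested. There the median of all genes was shifted by 0.53, and *Gbp2* was not called. Endothelial markers summed to 3240 to 6550 RPM in KC and to 269 to 438 in hepatic Ly6Clow libraries, hepatocyte markers to 1267 to 4214 and 95.4 to 176, NK markers to 242 to 893 and 6.1 to 10.9, and B cell markers to 648 to 1102 and 72.2 to 100.2.

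The members highest in KCs included *Ifit2*, at 23.6, 36.1, 38.0 and 27.3 RPM against 5.71, 4.97 and 5.37 in hepatic Ly6Clow cells (1.78 ± 0.23, adjusted p = 9.25e-05). *Irf7*, the factor that amplifies type I interferon production, stood at 758, 861, 582 and 838 RPM against 164, 231 and 178 (1.39 ± 0.20, adjusted p = 0.000199). Every KC library lay above every Ly6Clow library for both genes. *Rsad2* (1.64 ± 0.39) and *Ifi44* (1.23 ± 0.20) were also higher. The transcription factors *Irf5* (-1.57 ± 0.19) and *Irf1* (-1.34 ± 0.18), *Zbp1* (-1.28 ± 0.15) and *Gbp2* (-1.06 ± 0.37) were lower. *Bst2* was higher by 1.11 ± 0.17 in KCs, although their gate took cells low in its product. The part of the gate in this value was not tested.

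**Figure D2:**
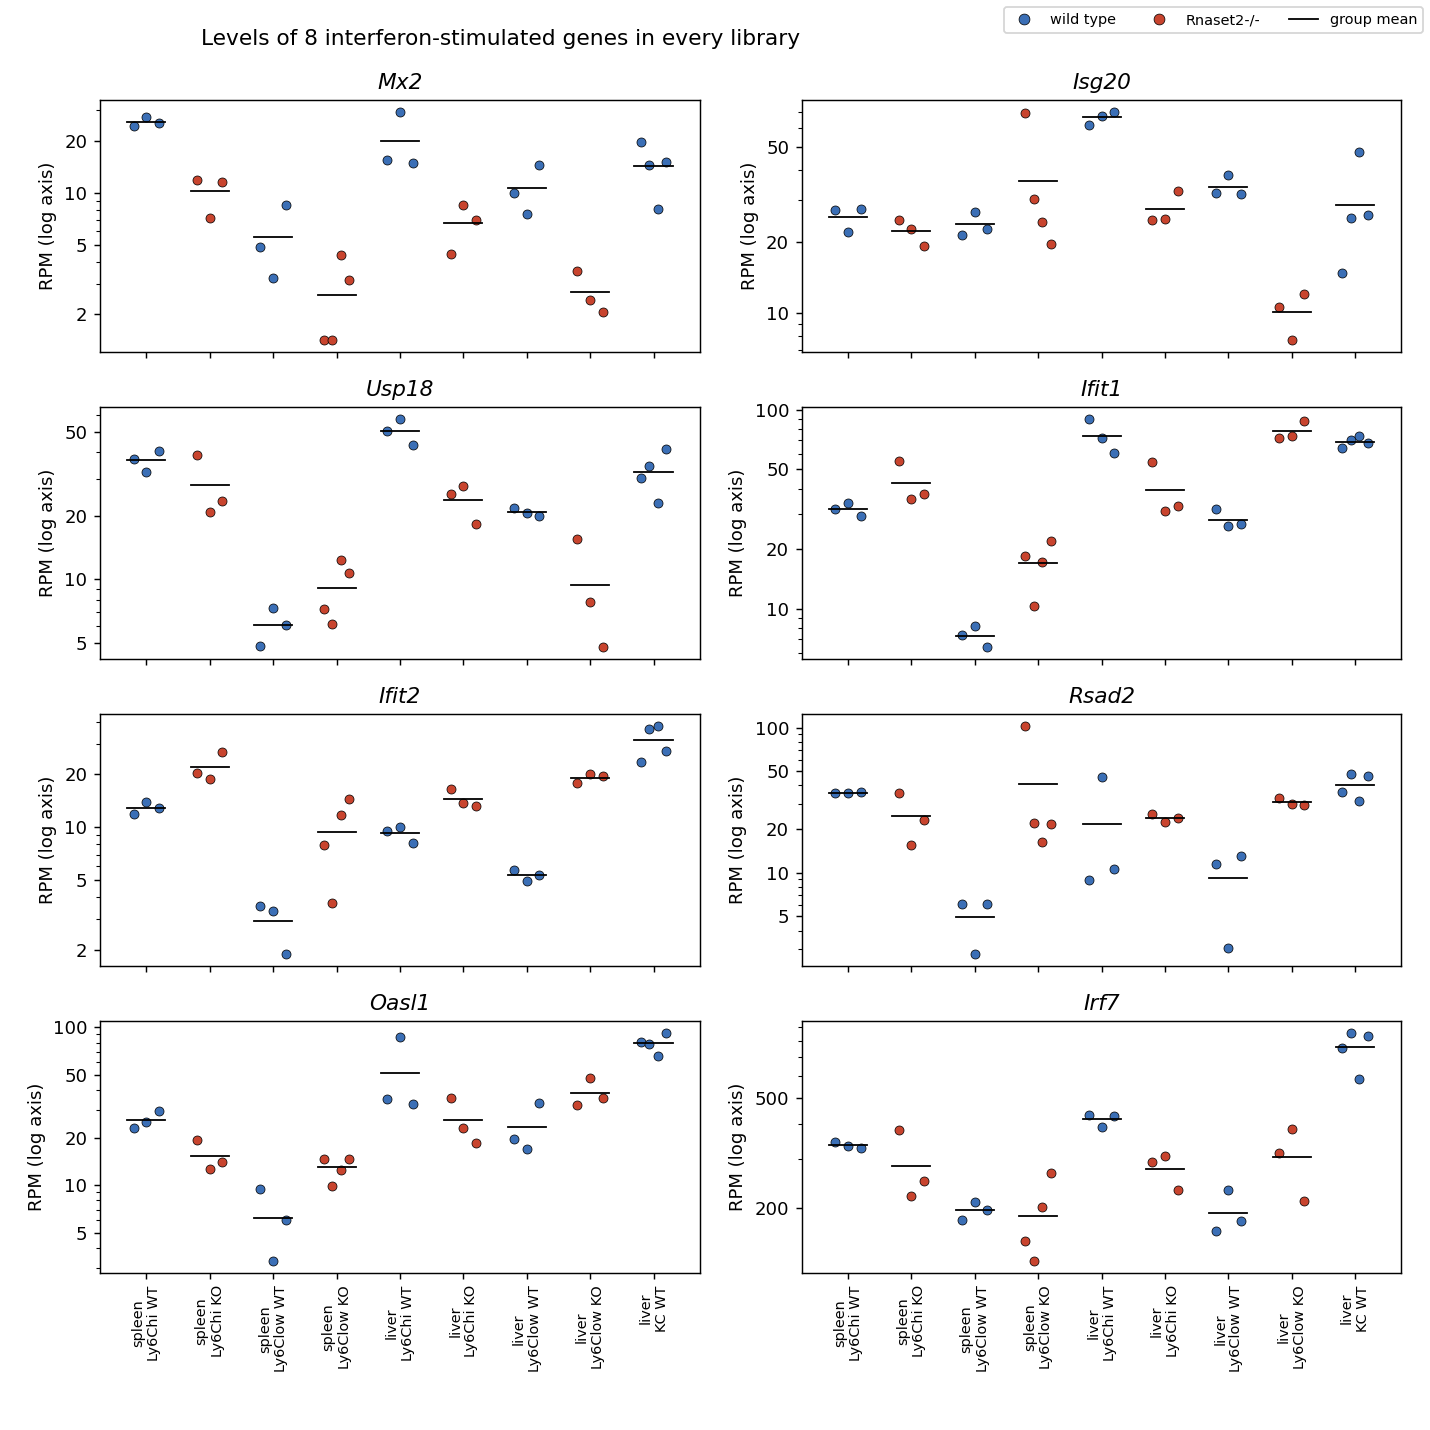
RPM on log axes of 8 interferon-stimulated genes in the 29 libraries, grouped by organ, subset and genotype, with 1 point per library (blue for wild type, WT; red for Rnaset2-/-, KO) and a line at the group mean. Mx2 lies lower in each Rnaset2-/- group's mean than in its wild-type group, while Rsad2 and Ifit1 lie higher in both Rnaset2-/- Ly6Clow groups; KCs are the highest group for Irf7, Oasl1 and Ifit2.

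The comparison of Rnaset2-/- with wild-type macrophages asked how loss of RNase T2 changes the interferon genes in each subset and organ. Over the 4 comparisons 15 members were called in none, and no member was called in the same direction in all 4. *Mx2*, a dynamin-like GTPase that blocks viruses, was called lower in 3, the largest number for any member. *Isg20*, *Mx1*, *Oas2*, *Usp18* and *Xaf1* were called lower in 2, both in liver. *Ifit2* and *Rsad2* were called higher in 2, and *Ifit1* was called higher in 2 and lower in 1. Direction therefore differed between members and between subsets. Calls over the 4 comparisons were not counted for all genes, so these counts have no background beside them. Each comparison is given in turn with its own background.

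**Figure D3:**
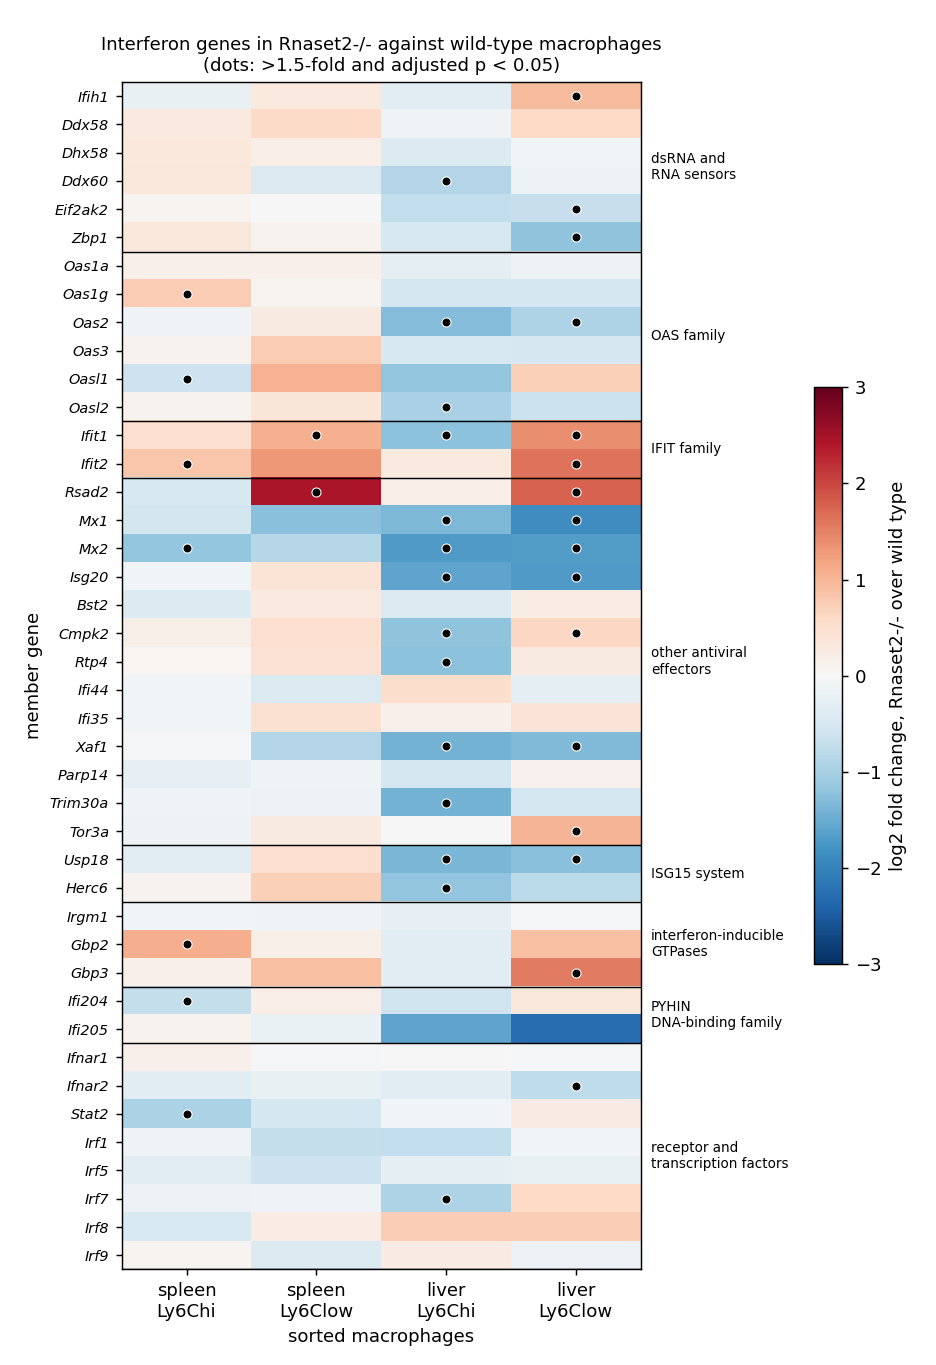
Log2 fold change of Rnaset2-/- over wild type for each of the 42 members (rows, by role) in splenic and hepatic Ly6Chi and Ly6Clow macrophages (columns), in red where higher and blue where lower, with a dot on each called value. The dots are 3 higher and 4 lower in splenic Ly6Chi, 2 higher in splenic Ly6Clow, 14 lower in hepatic Ly6Chi, and 7 higher and 9 lower in hepatic Ly6Clow cells.

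In splenic Ly6Chi macrophages 3 members were called higher and 4 lower in Rnaset2-/- mice, against 9.77% higher and 12.5% lower among all genes, with a median log2 change of -0.08 over the members and 0.01 over all genes. These shares, 7.14% and 9.52% of the members, lay near the background. *Gbp2* stood at 42.6, 39.6 and 56.4 RPM in Rnaset2-/- and at 22.3, 22.1 and 23.7 in wild-type libraries (1.09 ± 0.14, adjusted p = 0.000195). *Ifit2* stood at 20.4, 18.8 and 26.7 against 11.9, 13.9 and 12.8 (0.82 ± 0.15, adjusted p = 0.00206), and the synthetase *Oas1g* at 56.4, 39.0 and 41.8 against 28.8, 29.7 and 27.0 (0.76 ± 0.14, adjusted p = 0.00205). For these 3 genes the genotypes did not overlap.

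The 4 members called lower in splenic Ly6Chi cells had different roles. *Mx2* fell to 11.9, 7.16 and 11.6 RPM from 24.3, 27.3 and 25.1 (-1.17 ± 0.18, adjusted p = 0.00064). *Stat2*, which signals together with IRF9, fell to 50.9, 33.1 and 45.2 from 91.5, 81.2 and 97.3 (-0.95 ± 0.14, adjusted p = 0.000605). *Ifi204* (36.6 against 63.1 RPM, -0.72 ± 0.22) and *Oasl1*, which damps *Irf7* translation (15.3 against 25.8 RPM, -0.62 ± 0.16), were also lower, and all 4 were below the wild-type range. *Ifi204* lost its call when any wild-type replicate or Rnaset2-/- replicate 2 or 3 was left out (-0.80 to -0.52), and *Oasl1* when wild-type replicate 3 or Rnaset2-/- replicate 2 or 3 was (-0.55 to -0.52). Left out in turn, each of these 3 libraries brought the lower calls to 2, whereas without Rnaset2-/- replicate 1 they became 7, adding *Irf8* (-0.66), *Mx1* (-0.79) and *Rsad2* (-0.75). The median of all genes shifted by -0.11 on RPM as deposited, where *Mx1* passed the threshold (-0.66) and the other calls held.

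The receptor and transcription factors showed smaller values in this subset. *Ifnar1* gave 0.16 ± 0.10 and *Ifnar2* -0.33 ± 0.12 (adjusted p = 0.0494, under the fold threshold). *Irf1* gave -0.10 ± 0.11, *Irf5* -0.32 ± 0.13, *Irf7* -0.17 ± 0.16, *Irf8* -0.46 ± 0.19 and *Irf9* 0.07 ± 0.12, none called. Among the RNA sensors 0 of 6 were called, with *Ifih1*, which encodes MDA5, at -0.21 ± 0.20. *Rsad2* gave -0.47 ± 0.22, *Mx1* -0.54 ± 0.19 and *Oas1a* 0.15 ± 0.14.

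Markers of other cells moved with the genotype in this comparison. Summed NK cell markers (9 genes) were 816 to 888 RPM in wild-type and 36.9 to 81.6 in Rnaset2-/- libraries, with 9 of 9 called lower. T cell markers (7 genes) were 215 to 222 against 13.4 to 33.0, dendritic cell markers (10 genes) 668 to 732 against 340 to 375, and neutrophil markers (12 genes) 30531 to 32768 against 33358 to 58032. Of the immediate early genes 10 of 17 were lower. The part of these cells in the member values was not tested.

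In splenic Ly6Clow macrophages 2 members were called higher and 0 lower, against 4.05% higher and 4.3% lower among all genes, and the median change was 0.18 over the members. *Ifit1* stood at 18.4, 10.4, 17.1 and 21.9 RPM in the 4 Rnaset2-/- libraries and at 7.41, 8.17 and 6.39 in wild type (1.08 ± 0.25, adjusted p = 0.0361). *Rsad2*, the radical-SAM enzyme viperin, stood at 104, 22.0, 16.2 and 21.7 against 6.08, 2.75 and 6.11 (2.45 ± 0.56, adjusted p = 0.0321). Neither gene overlapped between genotypes, and replicate 1 lay far above the other Rnaset2-/- libraries for *Rsad2*. Neutrophil markers summed to 3396 to 39761 RPM in Rnaset2-/- and 1066 to 2427 in wild-type libraries, endothelial markers to 1462 to 2203 against 271 to 326, and NK markers to 12.4 to 75.1 against 118 to 189, and the part of these cells was not tested. Replicate 1 was the highest of the 4 in summed neutrophil markers (39761 RPM against 3396 to 22575) and erythroid markers (1282 RPM against 86.2 to 361). Without it *Rsad2* and *Ifit1* were still called, and *Herc6* was added.

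Neither splenic Ly6Clow call was stable to the other libraries. *Rsad2* lost its call when any single wild-type library or Rnaset2-/- replicate 2 was omitted, with values of 2.14 to 2.61, and *Ifit1* was not called without any wild-type replicate or Rnaset2-/- replicate 3 or 4 (0.92 to 1.15). The count of members called higher ran from 0 to 4 over these fits, being 0 without wild-type replicate 2 or 3, 1 when wild-type replicate 1, or Rnaset2-/- replicate 3 or 4, was omitted, and 4 without Rnaset2-/- replicate 2, the library with Y-linked transcripts. Lower calls were 2 without Rnaset2-/- replicate 4, *Irf1* (-0.88) and *Mx1* (-1.61). With no filter on low values 0 members were called. *Ifit2* gave 1.31 ± 0.41 (adjusted p = 0.0778) and *Oasl1* 1.03 ± 0.30 (0.0624), with every Rnaset2-/- value above wild type. *Mx1* stood at 4.27, 5.11, 13.1 and 18.8 RPM against 22.8, 21.7 and 22.4, below wild type in all 4 libraries, but was not called (-1.25 ± 0.46, adjusted p = 0.115).

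Among the transcription factors of splenic Ly6Clow cells, *Irf1* stood at 292, 255, 350 and 441 RPM against 525, 564 and 541 (-0.72 ± 0.20, adjusted p = 0.0592). *Irf5* (-0.62 ± 0.23) and *Stat2* (-0.52 ± 0.23) also lay below wild type in every library without being called. *Irf7*, *Irf8*, *Irf9*, *Ifnar1* and *Ifnar2* gave -0.11 ± 0.25, 0.22 ± 0.21, -0.42 ± 0.16, -0.05 ± 0.13 and -0.23 ± 0.13. *Ifih1* gave 0.29 ± 0.27 and *Oas1a* 0.15 ± 0.27.

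In hepatic Ly6Chi macrophages 14 members were called lower and 0 higher in Rnaset2-/- mice, against 14.9% lower and 15.7% higher among all genes. The median log2 change was -0.51 over the members and 0.01 over all genes. Without scaling factors the median of all genes shifted by 0.29 and 11 members were called lower, with a member median of -0.19; *Cmpk2*, *Ddx60* and *Oasl2* lost their calls. By role, 7 of the 13 other antiviral effectors, both genes of the ISG15 system, 2 of the 6 OAS genes, 1 of the 2 IFIT genes, 1 of the 6 sensors and 1 of the 8 receptor and transcription factors fell.

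*Isg20*, a 3′ exonuclease, stood at 24.6, 24.9 and 32.7 RPM in Rnaset2-/- and at 62.1, 67.4 and 70.4 in wild-type libraries (-1.57 ± 0.17, adjusted p = 0.000923). *Trim30a*, an interferon-induced TRIM protein, stood at 248, 266 and 271 against 590, 582 and 528 (-1.43 ± 0.16, adjusted p = 0.000973). *Mx1* stood at 58.8, 50.3 and 46.2 against 115, 108 and 96.6 (-1.34 ± 0.20, adjusted p = 0.00286). In each case the highest Rnaset2-/- library lay well under the lowest wild-type library. *Usp18* stood at 25.3, 27.8 and 18.3 against 50.6, 57.8 and 43.4 (-1.38 ± 0.23, adjusted p = 0.00473), and *Mx2* at 4.45, 8.57 and 7.00 against 15.5, 29.4 and 14.9 (-1.71 ± 0.30, adjusted p = 0.00564). *Xaf1*, a regulator of apoptosis, was lower by -1.41 ± 0.25. These genes were also separated without overlap, as were all 14. How many of all called genes were separated in this way was not counted.

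The remaining calls in hepatic Ly6Chi cells were *Oas2* (-1.30 ± 0.17), *Ifit1* (-1.23 ± 0.30), *Rtp4* (-1.23 ± 0.23), *Cmpk2* (-1.21 ± 0.28), *Herc6* (-1.19 ± 0.25), *Oasl2* (-0.97 ± 0.26), *Irf7* (-0.92 ± 0.21) and *Ddx60* (-0.89 ± 0.20). *Irf7* stood at 292, 307 and 231 RPM against 434, 390 and 429 (adjusted p = 0.0144), the only transcription factor called here. Omitting wild-type replicate 1 or 3, or Rnaset2-/- replicate 3, ended the call (-0.89 to -0.73). *Oasl2* lost its call without any wild-type replicate or Rnaset2-/- replicate 2 or 3, *Cmpk2* without wild-type replicate 1 or 3, *Ifit1* without wild-type replicate 1 or Rnaset2-/- replicate 2 or 3, and *Ddx60* without wild-type replicate 3 or Rnaset2-/- replicate 3. *Rsad2* gave 0.21 ± 0.52, with wild-type replicate 2 at 45.6 RPM and the other wild-type libraries at 8.88 and 10.6. Without wild-type replicate 2, *Rsad2* (0.88) and *Irf8* (1.19) were called higher. *Ifih1* (-0.34 ± 0.18), *Oas1a* (-0.29 ± 0.21), *Stat2* (-0.08 ± 0.18), *Irf1* (-0.75 ± 0.44), *Irf5* (-0.29 ± 0.28), *Irf9* (0.25 ± 0.23), *Ifnar1* (0.01 ± 0.20) and *Ifnar2* (-0.31 ± 0.22) were not called.

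In hepatic Ly6Clow macrophages the members were split, with 7 called higher and 9 lower, against 20.2% higher and 22.5% lower among all genes. The median was -0.07 over the members and 0.01 over all genes, and the members' shares of 16.7% and 21.4% lay near the background. *Ifit2* stood at 17.9, 20.2 and 19.6 RPM in Rnaset2-/- and at 5.71, 4.97 and 5.37 in wild-type libraries (1.63 ± 0.19, adjusted p = 0.00036). *Ifit1* stood at 72.1, 74.0 and 87.7 against 31.7, 25.9 and 26.5 (1.40 ± 0.17, adjusted p = 0.000488). *Rsad2* stood at 32.7, 29.6 and 29.3 against 11.6, 3.05 and 13.2 (1.78 ± 0.43, adjusted p = 0.011). The Rnaset2-/- libraries were close to each other and above wild type for these 3 genes.

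*Tor3a*, an interferon-induced ATPase, rose to 105, 85.9 and 68.3 RPM from 42.0, 37.7 and 41.8 (1.01 ± 0.18, adjusted p = 0.00308). *Gbp3* (1.56 ± 0.45) and *Cmpk2*, a nucleotide kinase that adjoins *Rsad2* (0.61 ± 0.17), were also above the wild-type range. *Ifih1* stood at 82.0, 98.8 and 64.8 against 65.6, 35.6 and 27.9 (0.94 ± 0.29, adjusted p = 0.0305), and the genotypes overlapped, since wild-type replicate 1 exceeded Rnaset2-/- replicate 3. Omitting wild-type replicate 2 or 3, or Rnaset2-/- replicate 2, ended the call (0.69 to 0.87). *Gbp3* lost its call whichever wild-type replicate was left out, with values of at most 1.59.

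Among the members called lower, *Mx1* stood at 30.6, 11.8 and 6.81 RPM against 52.9, 55.3 and 45.5 (-1.87 ± 0.44, adjusted p = 0.00957). *Isg20* stood at 10.6, 7.70 and 12.0 against 32.1, 38.1 and 31.6 (-1.70 ± 0.23, adjusted p = 0.00074), and *Mx2* at 3.54, 2.41 and 2.07 against 9.93, 7.58 and 14.4 (-1.67 ± 0.29, adjusted p = 0.0024). All Rnaset2-/- values lay below all wild-type values for these 3. *Xaf1* (-1.32 ± 0.26), *Usp18* (-1.25 ± 0.35), *Zbp1* (-1.20 ± 0.41), *Oas2* (-0.92 ± 0.18), *Ifnar2* (-0.76 ± 0.26) and *Eif2ak2*, the RNA-dependent kinase PKR (-0.69 ± 0.24), were also lower, without overlap except for *Zbp1*. Of the lower calls, *Isg20*, *Mx1*, *Mx2*, *Oas2*, *Usp18* and *Xaf1* were called in both hepatic subsets, 6 of the 14 in Ly6Chi and 6 of the 9 in Ly6Clow cells. Calls shared by the subsets were not counted over all genes.

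Several of these lower calls rested on few libraries. *Ifnar2* was not called without any wild-type replicate or Rnaset2-/- replicate 1 or 3 (-0.86 to -0.48), *Zbp1* without any wild-type replicate or Rnaset2-/- replicate 2 or 3 (-1.25 to -0.79), and *Usp18* without any wild-type replicate or Rnaset2-/- replicate 2 (-1.27 to -1.16). *Eif2ak2* lost its call when wild-type replicate 1 or 3, or Rnaset2-/- replicate 2 or 3, was omitted. *Cmpk2*, among the higher members, lost its call on omitting wild-type replicate 1 or 3, or Rnaset2-/- replicate 2. The lower calls numbered 5 without wild-type replicate 1 or 3. *Ifnar1* (-0.03 ± 0.18), *Stat2* (0.24 ± 0.42), *Irf1* (-0.07 ± 0.33), *Irf5* (-0.23 ± 0.19), *Irf7* (0.60 ± 0.24), *Irf8* (0.75 ± 0.43), *Irf9* (-0.17 ± 0.21) and *Oas1a* (-0.16 ± 0.19) were not called. *Irf7* was called higher without Rnaset2-/- replicate 3 (0.82), and *Irf8* higher without Rnaset2-/- replicate 2 (1.18).

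The hepatic Rnaset2-/- Ly6Clow libraries also held KC transcripts. The 7 KC markers summed to 5875 to 11102 RPM there, to 118 to 165 in wild-type hepatic Ly6Clow libraries and to 6571 to 19090 in KCs, with 5 of 7 called higher. Set beside each other, with the wild-type Ly6Clow libraries shared by both comparisons, the log2 differences of Rnaset2-/- Ly6Clow cells and of KCs from wild-type Ly6Clow cells were 1.63 and 1.78 for *Ifit2*, 1.78 and 1.64 for *Rsad2*, 1.40 and 0.69 for *Ifit1*, and 1.01 and 0.71 for *Tor3a*. For *Mx1* they were -1.87 and -0.29, and for *Mx2* -1.67 and -0.17. Of the other lower members, *Zbp1* was lower by similar amounts in both comparisons, as given above. *Isg20* and *Ifnar2* were also called in both. *Oas2*, *Xaf1*, *Usp18* and *Eif2ak2* were lower in Rnaset2-/- cells but not in KCs on RPM as deposited. There every KC library lay above every wild-type Ly6Clow library, as for *Oas2* at 405 to 732 against 168 to 210 RPM. In that comparison RPM as deposited shifted the median of all genes by 0.53. The part of KC-like cells in these values was not tested. All 17 immediate early genes were called lower in Rnaset2-/- hepatic Ly6Clow cells and 14 of 17 in hepatic Ly6Chi cells, and erythroid markers (5 of 5 tested) were called higher in both.

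Replicate 1 of both hepatic Rnaset2-/- groups differed from the other replicates in several members, which were picked out after their values were seen. Summed cell markers of these libraries differed too. In Ly6Chi cells replicates 1 to 3 gave 31565, 21419 and 21351 RPM for macrophage and 2040, 7560 and 7479 for Ly6Clow monocyte markers. In Ly6Clow cells they gave 11474, 5207 and 4455 for macrophage and 246, 33.7 and 99.6 for Ly6Chi monocyte markers. The part of these mixtures in the member values was not tested. *Gbp2*, *Gbp3*, *Irgm1*, *Ifi205* and *Irf1* were over 2 times the mean of the other replicates in both subsets. In Ly6Clow cells *Mx1*, *Usp18*, *Zbp1*, *Ifi44*, *Herc6* and *Stat2* were as well. In Ly6Chi cells *Gbp2* stood at 1059 RPM in replicate 1 and at 138 and 134 in replicates 2 and 3, against 275, 352 and 199 in wild type. *Gbp3* stood at 720, 133 and 151 against 263, 238 and 242, and *Irgm1*, the immunity-related GTPase, at 274, 126 and 120 against 169, 163 and 132. Replicate 1 lay above and the other replicates below the wild-type range for all 3 GTPases. *Ifi205* stood at 694, 176 and 117 against 632, 572 and 540, and *Irf1* at 1497, 547 and 556 against 916, 1182 and 1030, with the same order.

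In hepatic Ly6Clow cells replicate 1 was also the highest for these 5 genes. *Ifi205* was at 135 RPM in replicate 1 and at 4.98 and 9.11 in the others, against 93.6, 109 and 85.7 in wild type. *Gbp2* stood at 455, 131 and 92.9 against 97.9, 93.0 and 84.4, and *Irgm1* at 204, 41.6 and 40.9 against 74.7, 68.2 and 66.9. *Gbp3* stood at 689, 208 and 180 against 92.5, 98.0 and 99.4, above wild type in all 3 libraries. *Irf1* was at 1269, 507 and 737 against 690, 768 and 954. Among the other members, *Ifi44* stood at 36.8, 5.99 and 13.6 against 20.0, 14.0 and 18.6, and *Stat2* at 115, 67.7 and 28.7 against 52.7, 57.1 and 41.6. *Ifng* itself was at 71.0, 24.6 and 19.9 RPM in Rnaset2-/- Ly6Chi and at 23.8, 2.65 and 7.58 in Rnaset2-/- Ly6Clow cells, again highest in replicate 1, against 1.92 to 3.13 and 0.828 to 1.22 in wild type.

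**Figure D4:**
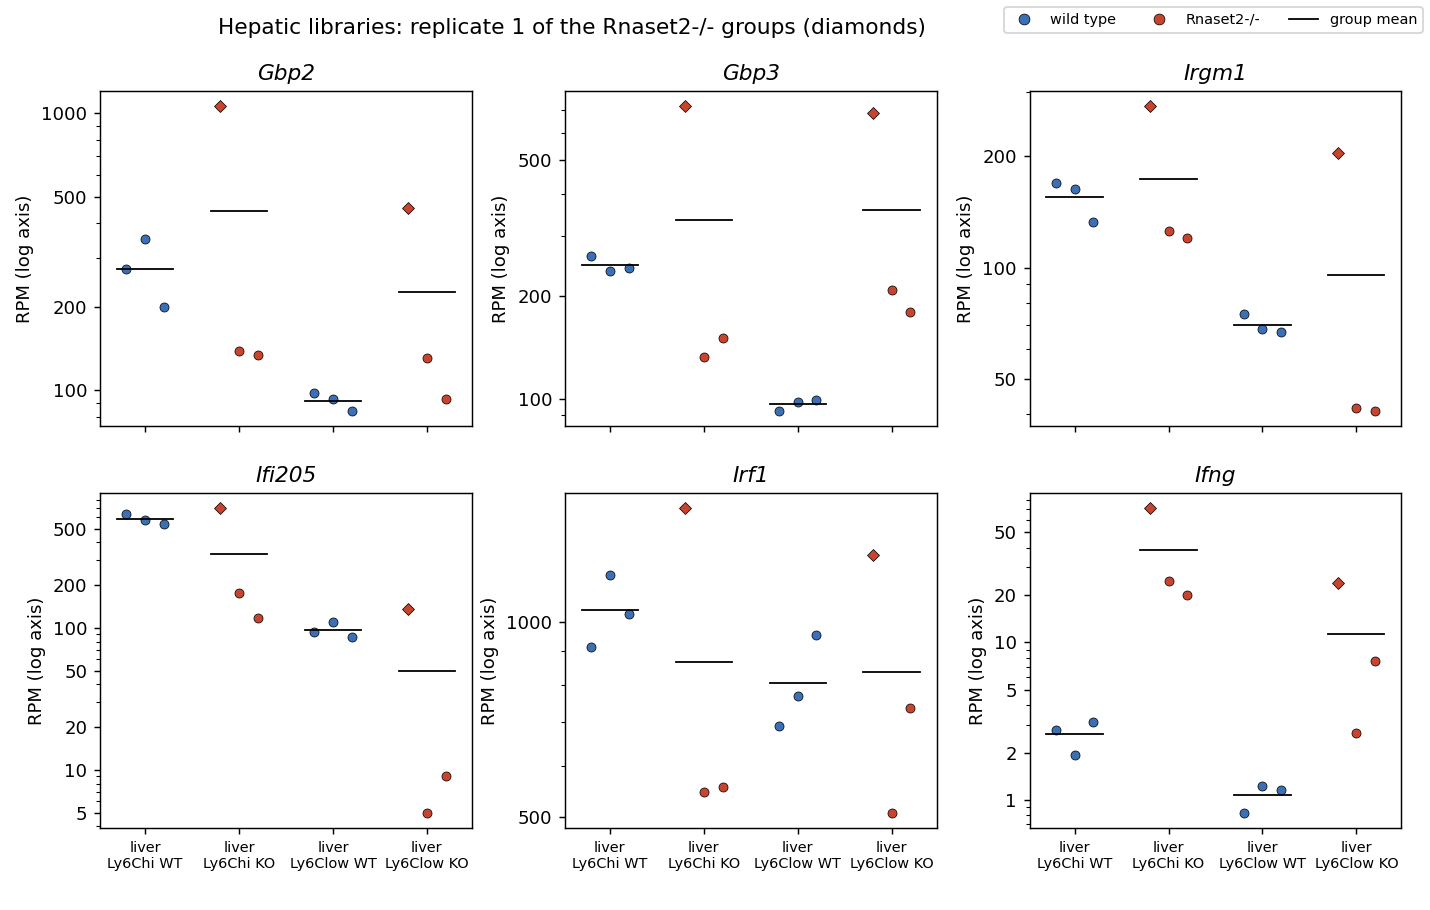
RPM on log axes of Gbp2, Gbp3, Irgm1, Ifi205, Irf1 and Ifng in the hepatic Ly6Chi and Ly6Clow libraries, blue for wild type and red for Rnaset2-/-, with diamonds for replicate 1 of the Rnaset2-/- groups and lines at the group means. The diamonds lie above the circles of their own group in all 6 panels, and for Ifi205 in Ly6Clow cells they differ 135 to 4.98 and 9.11 RPM.

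Leaving out replicate 1 therefore changed the hepatic counts. In Ly6Chi cells 24 members were then called lower and 0 higher, against 19.4% and 17.7% of all genes, and the member median was -0.70. All 14 earlier calls remained, and *Dhx58*, *Eif2ak2*, *Zbp1*, *Oasl1*, *Irgm1*, *Gbp2*, *Gbp3*, *Ifi204*, *Ifi205* and *Irf1* were added, with *Ifi205* at -2.39 ± 0.21, *Gbp2* at -1.35 ± 0.21, *Irf1* at -1.29 ± 0.17 and *Gbp3* at -1.17 ± 0.16. In Ly6Clow cells 8 members were called higher and 13 lower, against 19.9% and 22.8% of all genes. *Oasl1* was added as higher (0.84 ± 0.30) and *Oasl2*, *Trim30a*, *Herc6*, *Irgm1* (-0.77 ± 0.17) and *Ifi205* (-3.66 ± 0.27) as lower, and *Ifnar2* was lost. This fit was chosen after the values had been seen.

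Whether the genotype effect differed between subsets or organs was tested as an interaction, called at an adjusted p below 0.05 with no fold threshold. Between hepatic subsets 9 members were called, all with the more positive log2 change in Ly6Clow cells, against 5.08% higher and 5.24% lower among all genes. The widest were *Ifit1* (2.66 ± 0.36, adjusted p = 0.00103), which fell in Ly6Chi and rose in Ly6Clow cells, *Oasl1* (1.91 ± 0.54, 0.0441) and *Cmpk2* (1.84 ± 0.34, 0.00604), and the others were *Irf7*, *Rtp4*, *Ifit2*, *Ifih1*, *Tor3a* and *Trim30a*. The count was 5 on RPM as deposited, which shifted the median of all genes by -0.22 and lost the *Oasl1* call. Omitting 1 library ended the call in 8 of 12 fits for *Oasl1*, 9 for *Ifih1* and *Trim30a* and 10 for *Tor3a*, and in 0 for *Ifit1*, *Cmpk2*, *Irf7*, *Rtp4* and *Ifit2*. The replicate block, no filter on low values and edgeR also ended the *Oasl1* call. The count was also 5 without Ly6Chi wild-type replicate 1 or 2, Ly6Clow wild-type replicate 2, Ly6Chi Rnaset2-/- replicate 2 or 3, or Ly6Clow Rnaset2-/- replicate 2, and 14 without replicate 1 of both hepatic Rnaset2-/- groups. Between splenic subsets 3 members were called, *Rsad2* (2.90 ± 0.70, adjusted p = 0.016), *Oasl1* (1.63 ± 0.37, 0.0122) and *Bst2* (0.68 ± 0.18, 0.0245), against 8.56% higher and 7.17% lower among all genes. All had the more positive change in Ly6Clow cells, a share near the background. *Bst2* lost its call in 5 of 13 fits with 1 library omitted, in the joint fit of all libraries and with the replicate block, and the other 2 genes in 0. *Oasl1* gave -0.62 in Ly6Chi and 1.03 in Ly6Clow cells of the spleen, and -1.19 and 0.71 in the liver, where neither value was called.

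Between organs, 13 members were called in Ly6Chi cells, 12 of them with the more negative log2 change in liver, against 16.4% lower and 17.9% higher among all genes. *Ifit1* (-1.71 ± 0.36, adjusted p = 0.00336), *Isg20* (-1.46 ± 0.21, 0.000352) and *Cmpk2* (-1.35 ± 0.31, 0.00603) were the widest, and *Stat2* went the other way (0.90 ± 0.24, 0.0113). On RPM as deposited the count was 9, with the median of all genes shifted by 0.36, and *Cmpk2* was no longer called. Without hepatic Rnaset2-/- replicate 1 the count was 23. In Ly6Clow cells 7 were called, 6 with the more negative log2 change in liver, against 14.8% lower and 12.3% higher among all genes. The share of lower calls lay near the background and that of higher calls under it. These were led by *Isg20* (-2.12 ± 0.46, adjusted p = 0.00468), *Usp18* (-1.73 ± 0.47, 0.0154) and *Herc6* (-1.51 ± 0.49, 0.0365), with *Tor3a* the 1 gene with the more positive change in liver (0.75 ± 0.22, 0.0248). *Herc6* lost its call in 11 of 13 fits with 1 library omitted, with no filter and with the replicate block, *Tor3a* in 4 of 13, and *Isg20* and *Usp18* in 0. The Ly6Clow count was 3 without wild-type replicate 2 of spleen or of liver, and 4 without wild-type replicate 1 or 3 of either organ or splenic Rnaset2-/- replicate 3. *Mx1* and *Mx2* were called in none of the 4 interactions.

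The interferon ligands were mostly near the floor of detection, and 16 of 21 listed genes had a row. *Ifnb1* was at 3.78, 5.17 and 6.98 RPM in wild-type hepatic Ly6Chi and at 4.14, 18.8 and 16.8 in wild-type hepatic Ly6Clow libraries. In Rnaset2-/- mice it was at 2.99, 2.70 and 5.69 in hepatic Ly6Chi libraries (-0.68 ± 0.31, not called) and at 0.231, 0.078 and 0.077 in hepatic Ly6Clow libraries, each at or under 3 reads. The 10 *Ifna* rows summed to 1.85 to 18.1 RPM in wild-type hepatic Ly6Chi and 3.64 to 21.6 in wild-type hepatic Ly6Clow libraries, to 0.384 to 0.846 and 0 to 0.231 in the matching Rnaset2-/- groups, and to 0 to 3.23 in KCs. *Ifng* was lower in Rnaset2-/- splenic Ly6Chi cells (2.47 against 23.5 RPM, -2.75 ± 0.20), where NK markers were also lower, and higher in Rnaset2-/- hepatic Ly6Chi (2.97 ± 0.50) and Ly6Clow cells (2.13 ± 0.61). In hepatic Ly6Chi cells summed NK markers were 288, 654 and 743 RPM in Rnaset2-/- replicates 1 to 3, against 18.5 to 38.5 in wild-type libraries. *Ifng* was highest in replicate 1, where the NK sum was the lowest of the Rnaset2-/- libraries. T cell markers summed to 347, 296 and 159 RPM against 19.2 to 38.5. Endothelial markers were 463 to 2659 against 80.8 to 116, with 8 of 8 called higher. In hepatic Rnaset2-/- Ly6Clow replicates 1 to 3, NK markers summed to 90.9, 31.4 and 65.0 RPM, against 6.1 to 10.9 in wild type. T cell markers there summed to 117, 35.8 and 74.0 RPM, against 25.1 to 43.4. Both sums had the same order over the replicates as *Ifng* in that group. The part of these cells in the *Ifng* values was not tested.

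Receptors and other factors outside the 42 moved in several comparisons. *Ifngr1*, the ligand-binding chain for interferon-gamma, was lower in Rnaset2-/- splenic Ly6Clow (-1.15 ± 0.18), hepatic Ly6Chi (-1.26 ± 0.32) and hepatic Ly6Clow cells (-1.69 ± 0.27) but not in splenic Ly6Chi cells (0.06 ± 0.13). *Irf4* was lower in splenic Ly6Chi (-1.55 ± 0.12) and hepatic Ly6Clow cells (-2.40 ± 0.24), and *Jak2* in hepatic Ly6Clow cells (-1.13 ± 0.21). *Ikbke*, a kinase that phosphorylates interferon regulatory factors, was higher in all 4 comparisons, by 0.71 ± 0.08, 2.87 ± 0.26, 1.05 ± 0.32 and 2.90 ± 0.38 in splenic Ly6Chi, splenic Ly6Clow, hepatic Ly6Chi and hepatic Ly6Clow cells. *Trim25*, a ubiquitin ligase of the RIG-I pathway, was lower in hepatic Ly6Chi (-2.11 ± 0.27) and Ly6Clow cells (-1.10 ± 0.27). In a further list of interferon-stimulated genes, of which 35 were tested, 2 were higher and 1 lower in splenic Ly6Chi, 0 and 1 in splenic Ly6Clow, 3 and 10 in hepatic Ly6Chi, and 6 and 7 in hepatic Ly6Clow cells. In hepatic Ly6Chi cells these were 8.57% and 28.6% of the list, against 15.7% and 14.9% of all genes, and in hepatic Ly6Clow cells 17.1% and 20%, near the 20.2% and 22.5% of all genes. In spleen they were at most 5.71%, under the background of each comparison. In hepatic Ly6Clow cells *Gbp7* (2.50 ± 0.44) and *Gbp5* (1.81 ± 0.61) led the higher genes and *Slfn4* (-4.14 ± 0.43) the lower ones.

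Members with and without the ISRE letters in their window are given as a description. In hepatic Ly6Clow cells 4 of the 6 higher members that had a window held the letters (*Ifit1*, *Rsad2* and *Gbp3* among those shown above), and 1 of the 4 lower ones. In hepatic Ly6Chi cells 3 of the 9 lower members with a window held them, and 13 of the 23 not called. The median log2 change was 0.10 with and -0.12 without the letters in hepatic Ly6Clow, and -0.39 with and -0.53 without in hepatic Ly6Chi cells, with 16 members on each side.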

How the data were processed

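RNA of 29 sorted macrophage libraries in 9 groups was read with the Ion AmpliSeq mouse transcriptome panel on an Ion Proton. The authors counted reads per amplicon with the plug-in of the sequencer's software (mm10 per the submitters' processing notes) and deposited RPM (reads per 1000000 mapped) per gene. The RPM values were whole multiples of 1 read within 0.1 reads for 100.0% of values, so reads were recovered for count tests. Depth (11175843 to 21167602 reads) limits values under 3 reads, and such floors cover counting error only. Groups came from the sample titles.

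Values were divided by relative log expression factors, and log2(RPM + 1) was fitted per comparison with limma 3.58.1 (trend) in R 4.3.3, for genes that reached 1 RPM in 3 or more libraries of a comparison. Fold changes on this scale understate those of low genes. Alternatives were 0.1 added before log2, no filter, RPM as deposited, a joint fit of 29 libraries, a replicate block, edgeR 4.0.16 and DESeq2 1.42.0 on recovered reads, other fold thresholds, and each library left out. The fits were tested on simulated data. Python 3.11.15, pandas 2.3.3 and matplotlib 3.10.9 served for tables and plots.

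The members, lists, motifs and naming rule were chosen with earlier results of these data known. In each genotype comparison up to 6 called members with the largest rise and up to 6 with the largest fall are named in full, with *Rsad2*, *Ifih1*, *Mx1*, *Oas1a* and all IRF, STAT and IFNAR members; in each interaction up to 3, in each wild-type comparison up to 4 per direction, and from the further lists the ligands, receptors, other IRFs and up to 3 per direction. Members named outside this rule (those around hepatic replicate 1, the remaining calls and those lost or gained in an alternative) were chosen after their values were seen.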

Additional observations from a re-analysis of the deposited data

Results flagged for a closer look

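In groups of 4 libraries, 5 of the 84 tests of a member in a group found a library far from the others, and chance alone flags about 1 in 20 groups. *Rsad2* stood at 103.6 RPM in replicate 1 of Rnaset2-/- splenic Ly6Clow cells, with the others at 16.2 to 22.0. *Eif2ak2* stood at 10.6 RPM in replicate 4 of the same group, with the others at 7.66 to 8.09. Replicate 3 of the KCs was low for *Ddx58* (32.3 RPM, others 51.5 to 54.1), *Ddx60* (21.9, others 56.5 to 59.5) and *Ifnar2* (92.6, others 140.5 to 148.5). That library was the lowest of its group in 25 of the 42 members on RPM as deposited, a rank not counted over all genes. Its KC markers summed to 6571 RPM against 17205 to 19090 in the others, and the part of this in the member values was not tested.

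The genotype effect differed between organs or subsets by the interaction test (limma, adjusted p) for the members with the widest differences. For organs in Ly6Clow cells and for splenic subsets, the share of members called was not above the background of all genes. In Ly6Chi cells the log2 change was more negative in liver than in spleen for *Ifit1* (-1.71, 0.00336), *Isg20* (-1.46, 0.000352) and *Cmpk2* (-1.35, 0.00603). In Ly6Clow cells it was more negative in liver for *Isg20* (-2.12, 0.00468), *Usp18* (-1.73, 0.0154) and *Herc6* (-1.51, 0.0365). It was more positive in Ly6Clow than in Ly6Chi cells of the spleen for *Rsad2* (2.90, 0.016), *Oasl1* (1.63, 0.0122) and *Bst2* (0.68, 0.0245), and of the liver for *Ifit1* (2.66, 0.00103), *Oasl1* (1.91, 0.0441) and *Cmpk2* (1.84, 0.00604). With 1 library omitted, *Herc6* lost its call in 11 of 13 fits, *Bst2* in 5 of 13 and hepatic *Oasl1* in 8 of 12. Sex, dissociation and cell mixture moved with genotype in liver, as given above, and their part was not tested.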

How the results depend on the processing

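Of 277 recomputed counts of called members, 225 stayed within 1.5 times the reported count and 52 moved. For single members, 460 of 483 values under another setting and 377 of 427 with a library left out kept their side of the threshold. No called value reversed. Among values called in neither fit the sign changed 30 times, over 16 members and comparisons, with main log2 changes of at most 0.309 in size. A value of 0.1 before log2 and edgeR moved no count by over 1.5 times. In splenic Ly6Chi cells one joint fit of 29 libraries gave 0 higher and 2 lower, no fold threshold 7 lower, and a 2-fold threshold 1 higher and 1 lower. In splenic Ly6Clow cells no filter gave 0 higher, RPM as deposited 1 lower, the joint fit 5 higher and 2 lower, and DESeq2 7 higher and 3 lower. A 2-fold threshold gave 15 calls between wild-type splenic and 14 between wild-type hepatic subsets, 13 and 11 between organs in Ly6Chi and Ly6Clow cells, and 12 for KCs, and RPM as deposited gave 29 for KCs. No filter gave 4 organ interactions in Ly6Clow cells and 5 hepatic subset interactions, RPM as deposited 5 of the latter, and leaving out replicate 1 of both hepatic Rnaset2-/- groups 14; the cause was not tested.

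With each library left out in turn, splenic Ly6Chi cells gave 3 to 4 higher and 2 to 7 lower members, splenic Ly6Clow 0 to 4 and 0 to 2, hepatic Ly6Chi 0 to 2 and 10 to 24, and hepatic Ly6Clow 5 to 8 and 5 to 13. Wild-type subsets gave 28 to 29 calls in spleen and 17 to 25 in liver, organs 17 to 23 in Ly6Chi and 16 to 22 in Ly6Clow, and KCs 16 to 22. The interactions gave 12 to 23 (organ, Ly6Chi), 3 to 8 (organ, Ly6Clow), 2 to 4 (subset, spleen) and 5 to 12 (subset, liver).

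Same-numbered libraries of the 2 genotypes correlated at -0.19 to 0.16 in their deviations, so the numbers did not pair them. Those of the hepatic Rnaset2-/- subsets correlated at 0.23 to 0.52, and those of the hepatic wild-type subsets at -0.16 to 0.56. The hepatic subset interaction treated all these libraries as independent. The replicate block joined same numbers across genotypes as well as subsets, so it did not model a pairing within the Rnaset2-/- mice alone. The replicate block gave 1 higher and 2 lower in splenic Ly6Clow cells, moved no other count by over 1.5 times, and ended the interaction calls of *Oasl1* (liver), *Bst2*, *Herc6* and *Oas3* and the splenic Ly6Clow call of *Ifit1*. Depth limits the interferon ligands, most of them near 3 reads, more than the members. *Ifi44* was as low as 0.285 RPM in replicate 1 of Rnaset2-/- splenic Ly6Clow cells, where 3 reads corresponded to 0.213 RPM.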
